A study of Mus musculus with 27 samples.

Results

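Of the 30815 accessible regions counted in this ATAC-seq series, 169 (0.548%) were more open than the control in cells given at least 2 of 3 cardiac reprogramming factors one at a time. The factors were Gata4 (G), Mef2c (M) and Tbx5 (T). Levels are CPM, a region's share of its library's total count scaled to a common total. A region was a member when the mean CPM of 3 libraries plus 5 was at least 2.5 times that of the control in at least 2 of G, M and T, and at most 0.5 times in none. A further 1 region met the first condition and failed the second. By the factors that passed, 34 members were G and M regions, 72 were G and T regions, 59 were M and T regions, and 4 passed in all 3 factors. The members were chosen by the CPM of the control, G, M and T libraries, so those values are given as a description and were not tested. The 12 libraries of the factor combinations were not used by the rule, and the tests below compare those with each other.

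ATAC-seq reads open chromatin through a transposase that inserts sequencing adapters where DNA is accessible. The cells were a neonatal cardiac fibroblast line of the Cd-1 mouse strain that expresses large T antigen and carries the alpha-MHC-GFP transgene, a reporter of cardiac muscle identity. They were infected with retroviruses and collected on day 2 without sorting, so infected and uninfected cells were read together, and fewer responding cells and a smaller change per cell cannot be told apart. The control group received dsRed, a fluorescent protein, and no inhibitors. The groups of 1 factor (G, M and T), of a pair (GM, GT and MT) and of all factors (GMT) received the factors so named and were cultured with sb431542 and xav939, which inhibit Tgfβ and Wnt signalling. Each group had 3 libraries, 24 in all, with total counts from 241394 to 1704896 and a median of 661976, so that 1 count was worth 0.587 to 4.14 CPM. Regions were not assigned to genes, since no annotation of their build, mm9, was used here, and the labelled cell type was therefore not checked against marker genes. No sequence is printed for the same reason.

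Gata4 is a zinc-finger factor that binds GATA sites and can bind nucleosomal DNA, Mef2c is a MADS-box factor of muscle genes, and Tbx5 is a T-box factor of heart and forelimb development. The 3 proteins act together on many heart enhancers, and forced expression of all of them moves fibroblasts toward a cardiomyocyte-like state. A region that opens with either of a pair of factors is thus a place where different DNA-binding families give a like readout.

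The libraries bear on what follows in 3 ways. The library labelled GT replicate 1 correlated at a Spearman rho of 0.824 to 0.941 with the G libraries and 0.722 to 0.73 with the other GT libraries, across the 20494 regions tested. At the M and T regions its mean level was 13.9 CPM, against 34.4 and 32.6 CPM in GT replicates 2 and 3 and 13.3 ± 2.98 CPM (SD, n = 3) in G. It kept its label in the comparisons. GMT replicate 1, the library with the lowest total, stood below the other GMT libraries in all 4 classes, and GM replicate 2 stood below the other GM libraries in all 4. Replicates are named biological, with no word on separate cultures or animals, and the p-values cover no more than the variation among these libraries.

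Few regions were shared between single factors under this rule. With no ratio at or under 0.5, 1311 regions passed in G, 1551 in M and 2185 in T. Counting also regions with such a low ratio, the shares of all regions were 4.43%, 5.28% and 7.23%. G and M shared 38 of them, which is 2.90% of the G list and 2.45% of the M list. G and T shared 76, or 5.80% of the G list and 3.48% of the T list, and M and T shared 63, or 4.06% of the M list and 2.88% of the T list. These lists were made against the same 3 control libraries. Members had a median of 7.48 CPM in the control, from 0.416 to 39.9 CPM, against 8.63 CPM over all regions. Regions that passed in G, M or T only had lower control medians, at 5.99, 5.53 and 6.65 CPM. The smaller of the passing ratios had a median of 2.90 over the members and was under 3 in 102 of 169, so most members lay close to the threshold. At 161 of 169 members every library of each passing factor was above every control library, a count that the rule largely fixes (over the 20494 regions tested, 17.5% had all G, 20.1% all M and 18.9% all T libraries above the control).

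**Figure D1:**
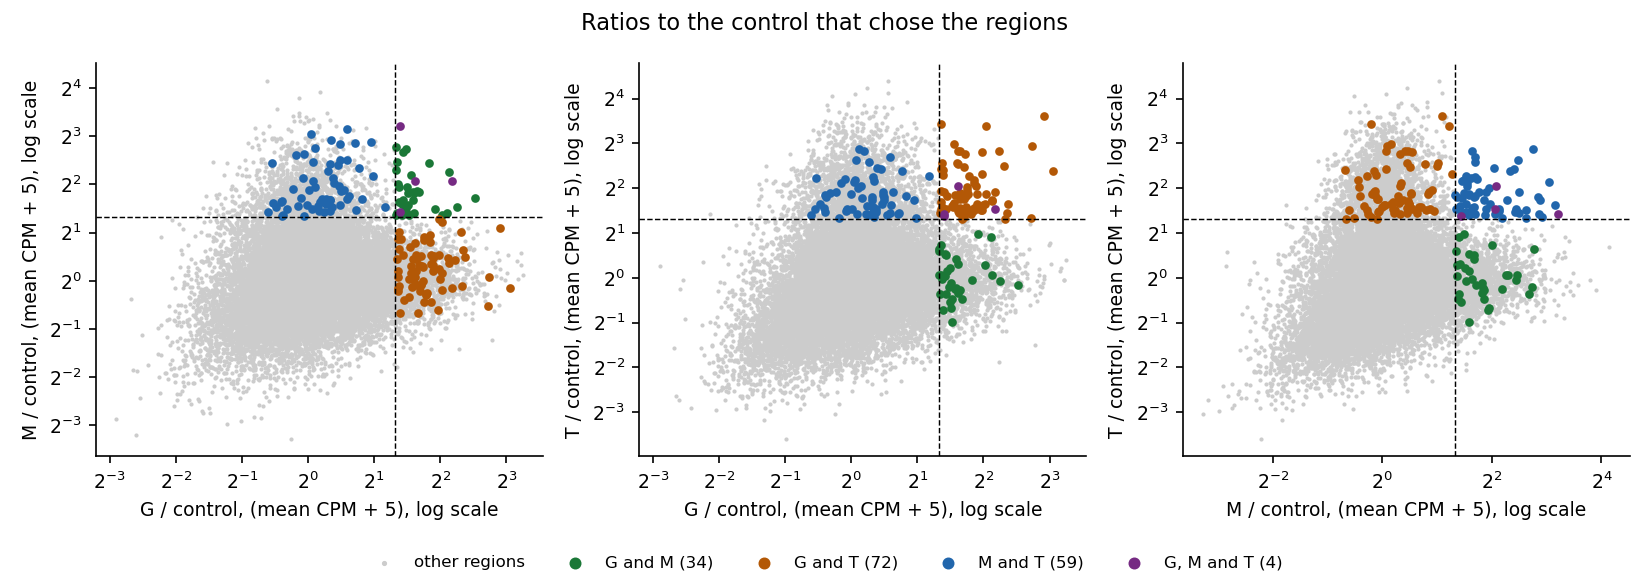
Ratio of each single factor to the control for all 30815 regions, as mean CPM plus 5, on log axes, with dashed lines at the threshold of 2.5. Coloured points are the 169 members by class (34 G and M, 72 G and T, 59 M and T, and 4 in all 3), which sit beyond both lines in the panel of their own factors, and grey points are the other regions.

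The threshold separated near-identical values. Just inside it were chr1:120369021-120369505, with a ratio of 2.501 in T, and chr12:78042569-78042898, with 2.503 in T, both G and T regions. Just outside were chr2:163425228-163425430, where M passed and G had 2.499, and chr19:29685300-29685912, where T passed and G had 2.494.

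The third single factor gave a level near the control in each class. At the G and M regions the median level was 6.79 CPM for the control, 32.7 for G, 42.2 for M and 8.10 for T. The G and T regions had medians of 7.09 CPM in the control, 37.8 in G, 35.7 in T and 8.81 in M. Medians at the M and T regions were 7.86 CPM in the control, 50.5 in M, 45.7 in T and 9.90 in G. The median ratio of the third factor to the control was 0.973 for T at the G and M regions, 1.20 for M at the G and T regions and 1.21 for G at the M and T regions, where the rule allowed values between 0.5 and 2.5. All 7 groups given factors had the inhibitors and the control had none, so against the control the factors and the inhibitors cannot be told apart.

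**Figure D2:**
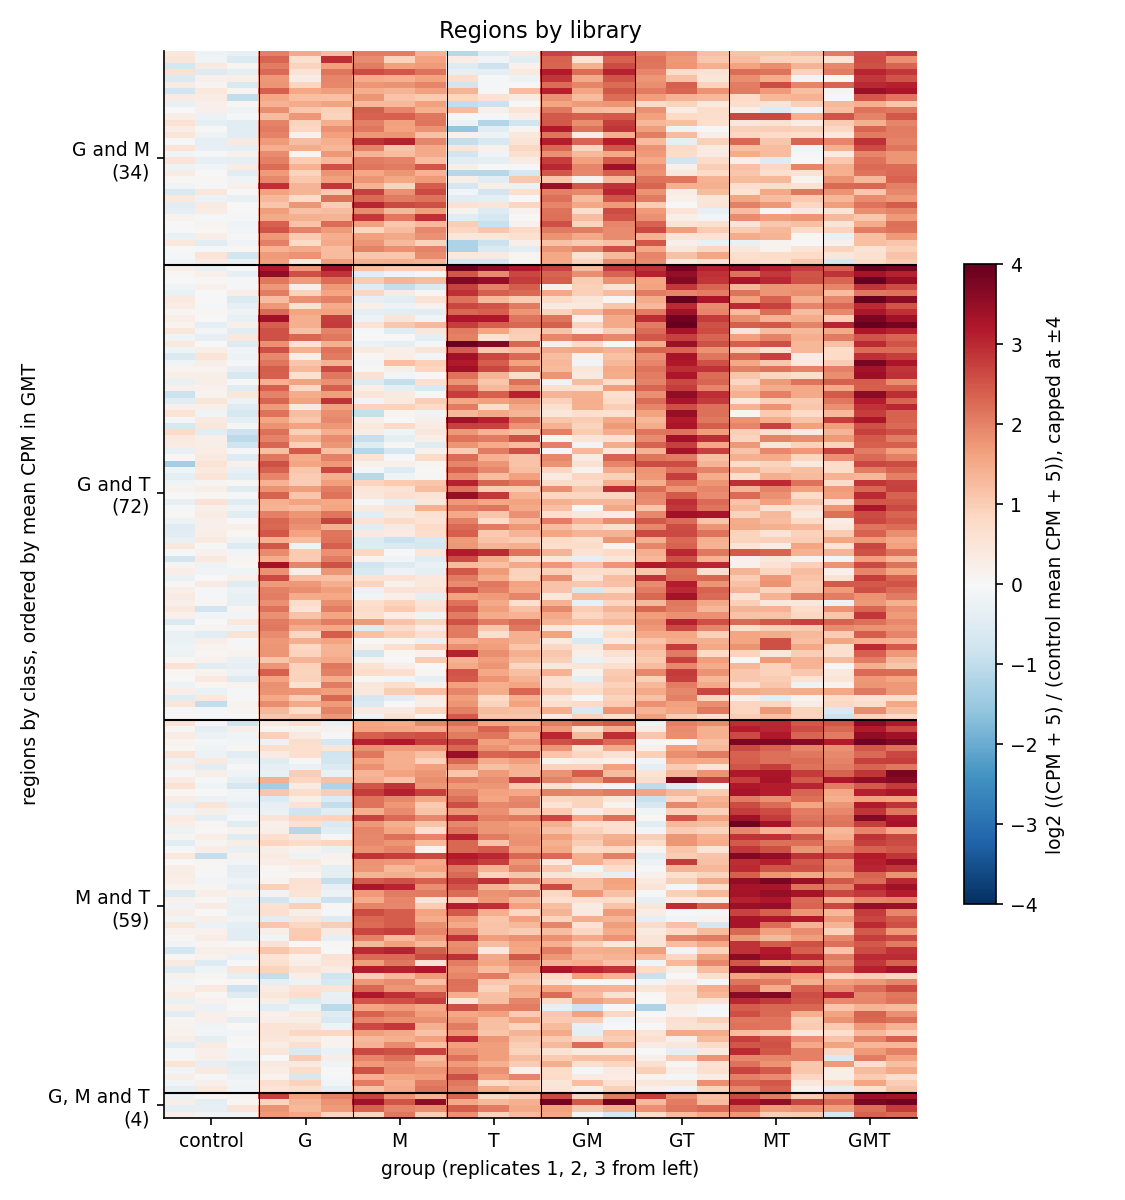
Each row is 1 of the 169 members and each column 1 of the 24 libraries, coloured by log2 of CPM plus 5 over the control mean plus 5. Within each class the columns of the third single factor are pale like the control, whose median was 7.48 CPM. The columns of the pair that holds both passing factors and of GMT replicates 2 and 3 are mostly among the darker. At the G and M regions GM replicate 2 had a mean of 42.8 CPM, below M replicate 1 at 53.9 CPM. At the G and T regions GT replicates 1 and 3 had 48.2 and 55.2 CPM, below T replicate 1 at 71.6 CPM.

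Among the pairs, the M and T regions, 59 places open with Mef2c alone or Tbx5 alone, were highest in cells given both. The mean level over these regions was 105, 96.9 and 70.7 CPM in the 3 MT libraries. In GM it was 39.3, 30.8 and 34.9 CPM, and in GT 13.9, 34.4 and 32.6 CPM. Every MT library was therefore above every GM and GT library, while GMT, at 53.9, 94.1 and 88.2 CPM, overlapped MT. Region by region, 40 of 59 were higher in MT than in GM in edgeR's quasi-likelihood fit (called, meaning an adjusted p under 0.05) and none was lower, against 12% of all regions tested called higher and 5.46% called lower. The median log2 fold change was 1.48, against -0.03 over all regions. Against GT, 48 of 59 were called higher in MT and none lower, where 11.2% of all regions were called higher and 8.55% lower, and the median log2 fold change was 1.99 against -0.01. All MT libraries lay above all GM libraries at 43 of 59 regions (18.2% of all regions) and above all GT libraries at 48 (16.2%). MT was called higher than both other pairs at 35 of 59 regions (4.53% of all regions tested) and higher than at least one at 53 (18.7%). Without GM replicate 3 the number called in MT against GM was 26, and it was also 26 without MT replicate 1. Without the library labelled GT replicate 1, 37 were called in MT against GT. Fits on fewer libraries have no share of all regions beside them here.

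The first-ranked M and T region, by the smaller passing ratio, was chr3:135179890-135180131, 242 bp wide. Its control libraries had 10.9, 1.25 and 8.30 CPM and its G libraries 9.78, 5.18 and 8.42 CPM. M gave 81.6, 75.6 and 67.9 CPM, and T gave 102, 90.1 and 52.6 CPM. The single factors M and T stood above the control and G in every library, which the rule and the ranking by these values largely fixed. In the combinations, MT had 148, 131 and 81.7 CPM, GM 52, 27 and 43.3 CPM, GT 3.70, 18.6 and 21.2 CPM, and GMT 70.4, 102 and 80.2 CPM. All MT libraries lay above all GM and GT libraries and overlapped those of GMT. By edgeR, MT exceeded GM by a log2 fold change of 1.57 ± 0.40 (SE, adjusted p = 0.00581) and GT by 3.11 ± 0.45 (adjusted p = 1.94e-05).

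Other M and T regions had the same order of groups. At chr10:38681807-38682037 the mean was 158 ± 20.7 CPM in MT (SD, n = 3), 76.6 ± 22.9 in GMT, 30.3 ± 4.61 in GM and 22.2 ± 10.3 in GT. At chr13:63220132-63220698 it was 83.9 ± 18.9 CPM in MT, 54.8 ± 18.7 in GMT, 20.3 ± 4.19 in GM and 16.9 ± 6.30 in GT. MT was called higher than GM and than GT at both. The exception among the first 4 was chr11:54693404-54693769, where GM (75.7, 34.4 and 54.1 CPM) and GT (8.64, 68.7 and 35.3 CPM) overlapped MT (125, 83 and 51.4 CPM). The tests there gave adjusted p = 0.327 against GM and 0.0654 against GT by edgeR.

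The 2 largest log2 fold changes over GT in this class and the 2 largest over GM were at 3 regions. At chr12:74512082-74512410, MT had 54.5, 36.7 and 25.7 CPM and GT 2.47, 0.848 and 4.71 CPM, a log2 fold change of 4.15 ± 0.62 (adjusted p = 2.93e-05, edgeR). GMT had 8.29, 19.6 and 25.5 CPM there, below every MT library but close to MT replicate 3 at 25.7 CPM. GMT against MT had an adjusted p of 0.268 (edgeR). At chr3:115440637-115441271, 635 bp wide, MT had 201, 192 and 182 CPM, GM 29.5, 22.1 and 17 CPM, and GT 6.17, 11 and 18.8 CPM. The log2 fold change was 3.05 ± 0.42 over GM (adjusted p = 1.40e-05) and 4.10 ± 0.46 over GT (adjusted p = 4.45e-07, edgeR). The single factor M had 122, 157 and 72.3 CPM at this region, and T 68, 70.9 and 41.7 CPM. GM was lower than M alone in every library. The rule chose regions high in M, and this one was named for its gap between MT and GM, so nothing is read from that order. At chr9:61503303-61503640, MT had 89.2, 81.4 and 81.7 CPM and GM 8.98, 4.91 and 12.4 CPM, a log2 fold change of 3.23 ± 0.44 (adjusted p = 1.16e-05, edgeR). M alone there had 48, 52.3 and 46 CPM, above every GM library, with the same limit from how the region was chosen and named.

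**Figure D3:**
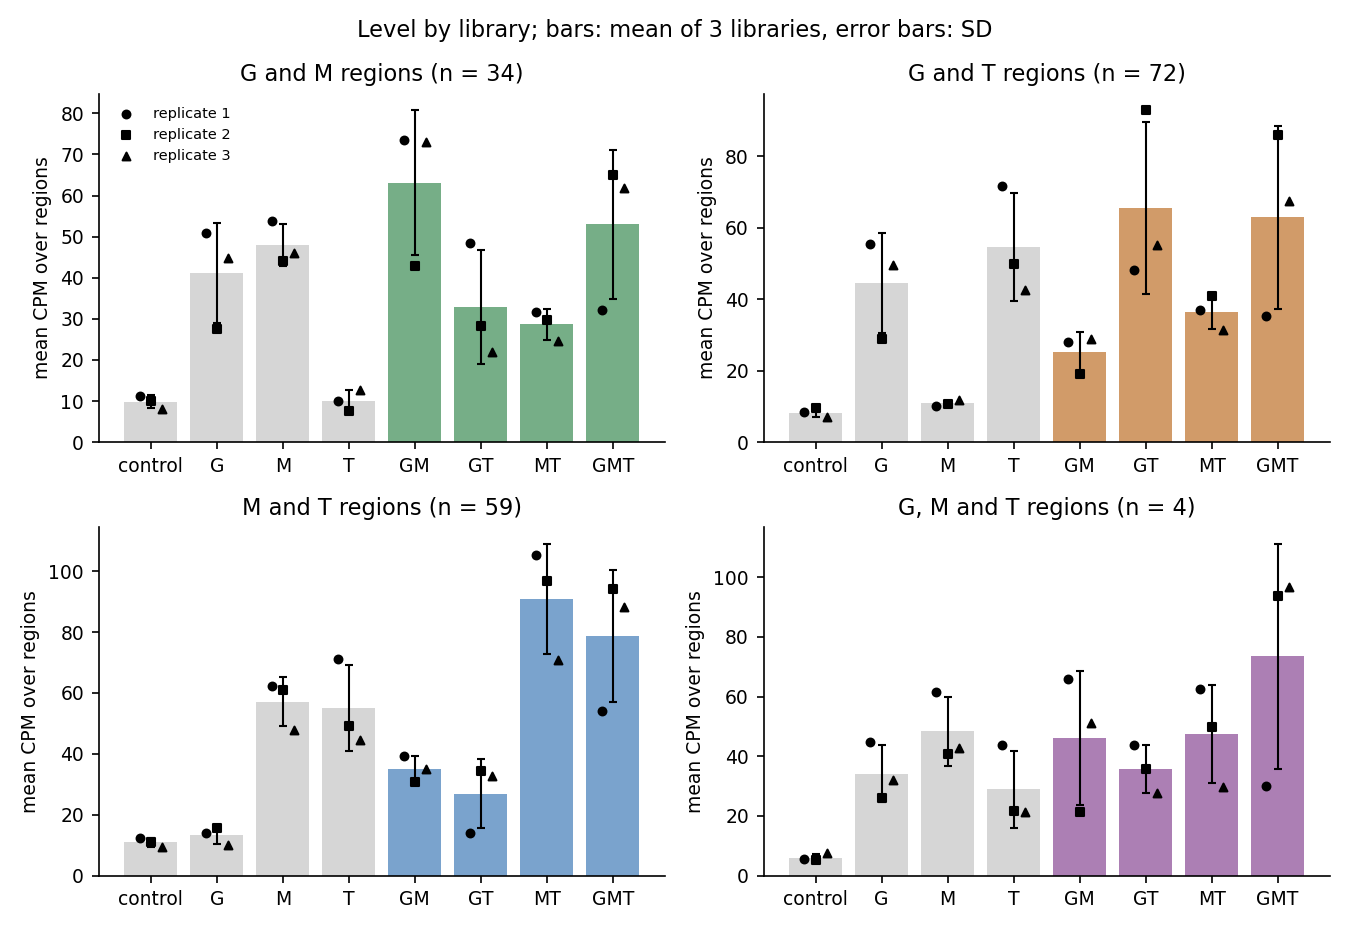
Mean CPM over the regions of each class in each library (points by replicate), with the mean of 3 libraries as bars and the SD as error bars. In 3 panels the highest bars are the pair of the class's own factors and GMT, as for the M and T regions at 91.0 CPM in MT and 78.7 CPM in GMT against 35.0 CPM in GM and 27.0 CPM in GT, and in the panel of 4 regions GMT is highest.

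The G and T regions, 72 places open with Gata4 alone or Tbx5 alone, were highest among the pairs in GT, with less separation. The mean level over them was 48.2, 92.9 and 55.2 CPM in GT, 28.1, 18.9 and 28.9 CPM in GM, and 37.0, 40.7 and 31.3 CPM in MT. All GT libraries were above all GM and MT libraries, the library labelled GT replicate 1 being the lowest of the 3. GMT had 35.4, 86.0 and 67.5 CPM and overlapped GT. GT was called higher than GM at 42 of 72 regions and lower at none, against 7.11% of all regions called higher and 6.46% called lower. The median log2 fold change was 1.48 (0.03 over all regions). Against MT, 24 of 72 were called higher in GT and none lower, where 8.55% and 11.2% of all regions were called, with a median of 1.03 (0.01 over all regions). All GT libraries lay above all GM libraries at 51 of 72 regions (9.23% of all regions) and above all MT libraries at 34 (13.5%). GT was called higher than both at 18 regions (1.36% of all regions tested) and than at least one at 48 (14.3%). The counts depended on GT replicate 2, and without it they were 7 against GM, and 7 higher and 1 lower against MT. Without the library labelled GT replicate 1 they were 49 and 32. Against GM the count was 22, 25 and 26 without GM replicates 1, 2 and 3, and 26 in a fit of the 12 combination libraries alone. Against MT it was 13 without MT replicate 1. No share of all regions is given for these fits, so the changes in count are not read as particular to these regions.

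The first-ranked G and T region was chr6:91495706-91496623, 918 bp wide, the most open member in T. The control libraries had 21.8, 13.7 and 17.4 CPM and the M libraries 46.4, 41.7 and 41.6 CPM. G gave 205, 69.9 and 220 CPM, and T gave 348, 263 and 203 CPM. M, at 2.13 times the control, stayed under the threshold although each of its libraries was above each control library. GT had 163, 316 and 191 CPM, GM 141, 49.1 and 151 CPM, MT 259, 190 and 152 CPM, and GMT 116, 439 and 313 CPM. Here GT and MT overlapped, and neither difference was called (adjusted p = 0.0959 against GM and 0.854 against MT, edgeR).

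The next regions in rank differed in which group was highest. At chr11:95217922-95218549 the mean was 143 ± 61.6 CPM in GT (SD, n = 3), 126 ± 90.8 in GMT, 40.8 ± 7.94 in MT and 37.7 ± 25.0 in GM, and GT was called higher than GM and than MT. At chr8:4230734-4231155 the mean was 250 ± 55.2 CPM in GT, 236 ± 34.4 in GMT, 157 ± 37.1 in MT and 122 ± 23.2 in GM. The call there was made against GM (log2 fold change 1.05 ± 0.26, adjusted p = 0.00758) and missed against MT (0.69 ± 0.26, adjusted p = 0.0609, edgeR). At chr15:80081059-80081398 the control was almost closed, at 2.18, 0 and 2.49 CPM, and GMT had 49.7, 164 and 87.8 CPM. GT had 22.2, 102 and 32.9 CPM there, GM 29.5, 7.37 and 13.9 CPM, and MT 29.3, 31.9 and 21 CPM, so GT overlapped the other combinations and GMT had the highest mean. GT was called higher than GM (adjusted p = 0.0442) and not than MT (0.195), and GMT against GT was not called (0.273, edgeR).

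The largest differences from GM in this class were at chr2:103498551-103499088 and chr7:57092878-57093268. The former had 29.6, 243 and 113 CPM in GT and 16, 12.3 and 7.73 CPM in GM, a log2 fold change of 3.40 ± 0.60 (adjusted p = 0.000445, edgeR). GT varied widely there, and its lowest value was in the library labelled GT replicate 1. At the latter, GT had 29.6, 89 and 84.7 CPM, GM 9.62, 7.37 and 6.18 CPM, and MT 11.7, 17.6 and 7.01 CPM. The log2 fold change was 3.06 ± 0.48 over GM (adjusted p = 0.000155) and 2.41 ± 0.46 over MT (adjusted p = 0.000423, edgeR). The largest difference from MT was at chr3:129339713-129339967, where the 3 GT libraries were close to each other, at 75.3, 67.8 and 65.9 CPM, against 4.69, 7.98 and 11.7 CPM in MT (log2 fold change 3.23 ± 0.46, adjusted p = 1.87e-05, edgeR). M alone had 0, 0.969 and 2.19 CPM at that region.

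The G and M regions formed the smallest class of a factor pair, with 34 members, and were highest among the pairs in GM. Their mean level was 73.5, 42.8 and 73.1 CPM in GM, 48.5, 28.2 and 21.9 CPM in GT, and 31.7, 29.7 and 24.5 CPM in MT. GM was above MT in every library and overlapped GT through the library labelled GT replicate 1. GMT, at 32.0, 65.0 and 61.9 CPM, also overlapped GM. The median over regions was 40.1 CPM in that library and 15.6 CPM in the mean of the other GT libraries, beside 32.7 CPM in G. GM was called higher than GT at 14 of 34 regions and lower at none, against 6.46% and 7.11% of all regions, with a median log2 fold change of 1.06 (-0.03 over all regions). GM was called higher than MT at 11 of 34 and lower at none, against 5.46% and 12% of all regions, with a median of 0.98 (0.03 over all regions). All GM libraries lay above all GT libraries at 15 of 34 regions (12.1% of all regions) and above all MT libraries at 13 (15.1%). Both were called at 9 regions (0.834% of all regions tested) and at least one at 16 (11.1%). The number called against GT was 21 without the library labelled GT replicate 1, 6 without GM replicate 1, 7 without GM replicate 3 and 1 without GT replicate 2. Without GT replicate 3 it was 7 higher and 1 lower. It was 9 with no filter on low counts or with a stricter one, and 6 in a fit of the compared groups alone. These alternative counts also lack a share of all regions.

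The first-ranked G and M region was chr15:38525711-38526108, 398 bp wide. The control had 4.37, 4.99 and 8.30 CPM and T 7.84, 5.91 and 5.44 CPM. G gave 46.3, 23.3 and 58.9 CPM, and M gave 43.2, 40.7 and 57 CPM. The control and T were alike and every G and M library stood above them, which the rule and the ranking largely fixed. GM had 82.8, 36.8 and 108 CPM, GT 35.8, 7.63 and 16.5 CPM, MT 19.4, 14.4 and 37.4 CPM, and GMT 24.9, 47.7 and 46.3 CPM. GM exceeded GT by a log2 fold change of 1.95 ± 0.46 (adjusted p = 0.00529) and MT by 1.73 ± 0.46 (adjusted p = 0.00811, edgeR), with an overlap of single libraries between GM and MT.

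Further G and M regions differed in which other pair was lower. At chr8:113785751-113786280, GM had a mean of 114 ± 37.4 CPM (SD, n = 3) and was called higher than GT (33.0 ± 21.8 CPM) and not MT (54.6 ± 25.1 CPM, adjusted p = 0.113, edgeR). At chr6:29853416-29853808, GM had 81.5, 39.3 and 54.1 CPM and MT 7.63, 7.98 and 7.01 CPM, a log2 fold change of 2.90 ± 0.52 (adjusted p = 0.000246, edgeR). MT was also low at chr14:76701826-76702196, with 11.7, 4.79 and 9.34 CPM against 90.5, 39.3 and 72.6 CPM in GM (log2 fold change 2.84 ± 0.55, adjusted p = 0.000488, edgeR). M alone had 54.4, 51.4 and 28.5 CPM at that region, above every MT library. M was used by the rule and the region was named for its gap from MT, so nothing is read from that order. The largest differences from GT were at chr18:80475527-80475750 (log2 fold change 2.67 ± 0.55, adjusted p = 0.0019) and chr14:64889998-64890548 (2.28 ± 0.50, adjusted p = 0.00301, edgeR). The latter call was lost without GT replicate 2 (adjusted p = 0.0523).

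**Figure D4:**
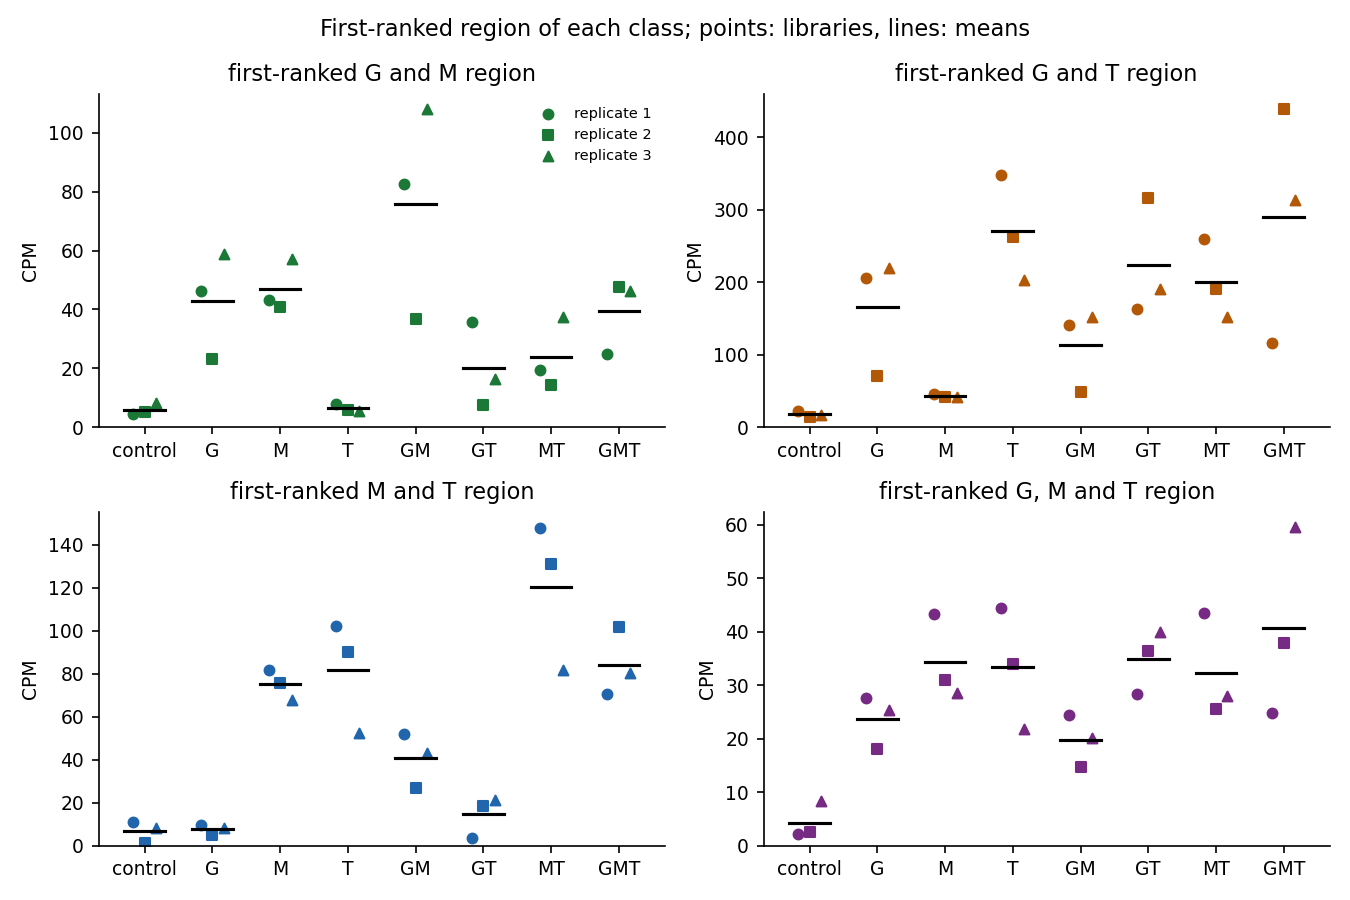
CPM in each library (points by replicate) and group means (lines) at the first-ranked region of each class. MT leads at the M and T region (148, 131 and 81.7 CPM) and GM at the G and M region (82.8, 36.8 and 108 CPM), while at the G and T region GT overlaps MT and GMT.

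Across the 3 classes of a factor pair, the pair with both passing factors was called higher than another pair in 179 of 330 region tests and lower in none. Over all regions tested, these 6 comparisons called 5.46% to 12% higher and 5.46% to 12% lower. Every region was counted against both other pairs, so the 330 tests are not independent. Each other pair lacks 1 of the passing factors. Regions that passed in exactly 1 single factor were compared between the same groups. Among the 1959 tested regions that passed in T only, GT was called higher than GM at 793 (40.5%) and MT higher than GM at 1267 (64.7%). Of the 1322 tested regions that passed in M only, MT was called higher than GT at 752 (56.9%) and GM higher than GT at 633 (47.9%). In the 1110 tested regions that passed in G only, GT was called higher than MT at 651 (58.7%) and GM higher than MT at 353 (31.8%). Beside these stand 58.3% of the G and T regions (GT against GM), 67.8% of the M and T regions (MT against GM), 81.4% of the M and T regions (MT against GT), 41.2% of the G and M regions (GM against GT), 33.3% of the G and T regions (GT against MT) and 32.4% of the G and M regions (GM against MT). The differences between these shares were not tested.

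The pairs that hold 1 of the passing factors had intermediate levels. At the G and T regions the median was 18.5 CPM in GM and 24.4 CPM in MT, between 7.09 CPM in the control and 52.7 CPM in GT. At the M and T regions it was 25.7 CPM in GM and 20.5 CPM in GT, between 7.86 CPM in the control and 80.5 CPM in MT. At the G and M regions it was 22.9 CPM in GT as in MT, between 6.79 CPM in the control and 50.7 CPM in GM. The GT medians depended on the library labelled GT replicate 1. Without it they were 15.6 CPM at the G and M regions and 27.1 CPM at the M and T regions. The medians of the pairs with 1 passing factor were below those of that single factor, such as 50.5 CPM in M beside 25.7 CPM in GM at the M and T regions. The rule chose regions where the single factors were high, so that comparison was not tested.

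Levels in the pair with both factors were mostly above those of either factor alone, a description for the same reason. The mean in that pair was above both single factors at 22 of 34 G and M regions, 48 of 72 G and T regions and 47 of 59 M and T regions. It was below both at 3, 3 and 2. It exceeded the sum of the 2 single levels less the control at 5 of 34, 10 of 72 and 20 of 59. Among the 3 pairs, the own pair had the highest mean at 30 of 34, 66 of 72 and 57 of 59. The counts in this paragraph have no share of all regions beside them, so they are a description of the members only.

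Adding the third factor, which alone did not pass, was measured by setting GMT beside the own pair of each class. Of 165 region tests, 1 was called lower in GMT and none higher. At the G and M regions, where Tbx5 was added, 1 of 34 was called lower in GMT than in GM and none higher, against 1.7% and 12% of all regions, with a median log2 fold change of -0.21 (-0.05 over all regions). At the G and T regions, where Mef2c was added to GT, 0 of 72 were called by edgeR or by DESeq2, against 5.68% of all regions called higher and 1.28% called lower. At an unadjusted p under 0.05, 3 were lower and 0 higher, and the median was -0.14 (0.01 over all regions). The M and T regions, where Gata4 was added to MT, also had 0 of 59 called by either tool, against 0.839% of all regions called higher and 0.146% called lower. At an unadjusted p under 0.05, 12 were lower and 1 higher, the median was -0.21 (-0.01 over all regions), and 42 of 59 had a negative log2 fold change. Shares of all regions at an unadjusted p or by sign were not computed, so nothing is read from these counts in either class. The median SE was 0.46, 0.44 and 0.38 in the 3 classes, and log2 fold changes as low as -1.56 at an M and T region were not called. The absence of calls therefore does not show that single regions did not differ, by a log2 fold change over 1 included. Leaving out the library labelled GT replicate 1, 1 M and T region was called lower in GMT, and without GT replicate 2, 1 G and T region was called higher.

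The called fall was at chr3:33773821-33774220, a G and M region of 400 bp. GM had 34.6, 41.8 and 64.9 CPM and GMT 16.6, 12.2 and 17.9 CPM, with no overlap (log2 fold change -1.56 ± 0.42, adjusted p = 0.0113, edgeR). T alone had 0, 2.95 and 3.62 CPM there, beside 6.55, 6.24 and 7.47 CPM in the control. The other pairs were also below GM, at 11.1, 7.98 and 11.7 CPM in MT and 29.6, 11 and 16.5 CPM in GT. MT lacks Gata4 and GT lacks Mef2c, both passing factors here. That lack and the presence of Tbx5 cannot be told apart in these pairs. The call was lost without GM replicate 3 (adjusted p = 0.0836) and without GMT replicate 2 (0.082), and the region was not tested under the stricter filter. Without GM replicate 2 a further G and M region was called lower.

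**Figure D5:**
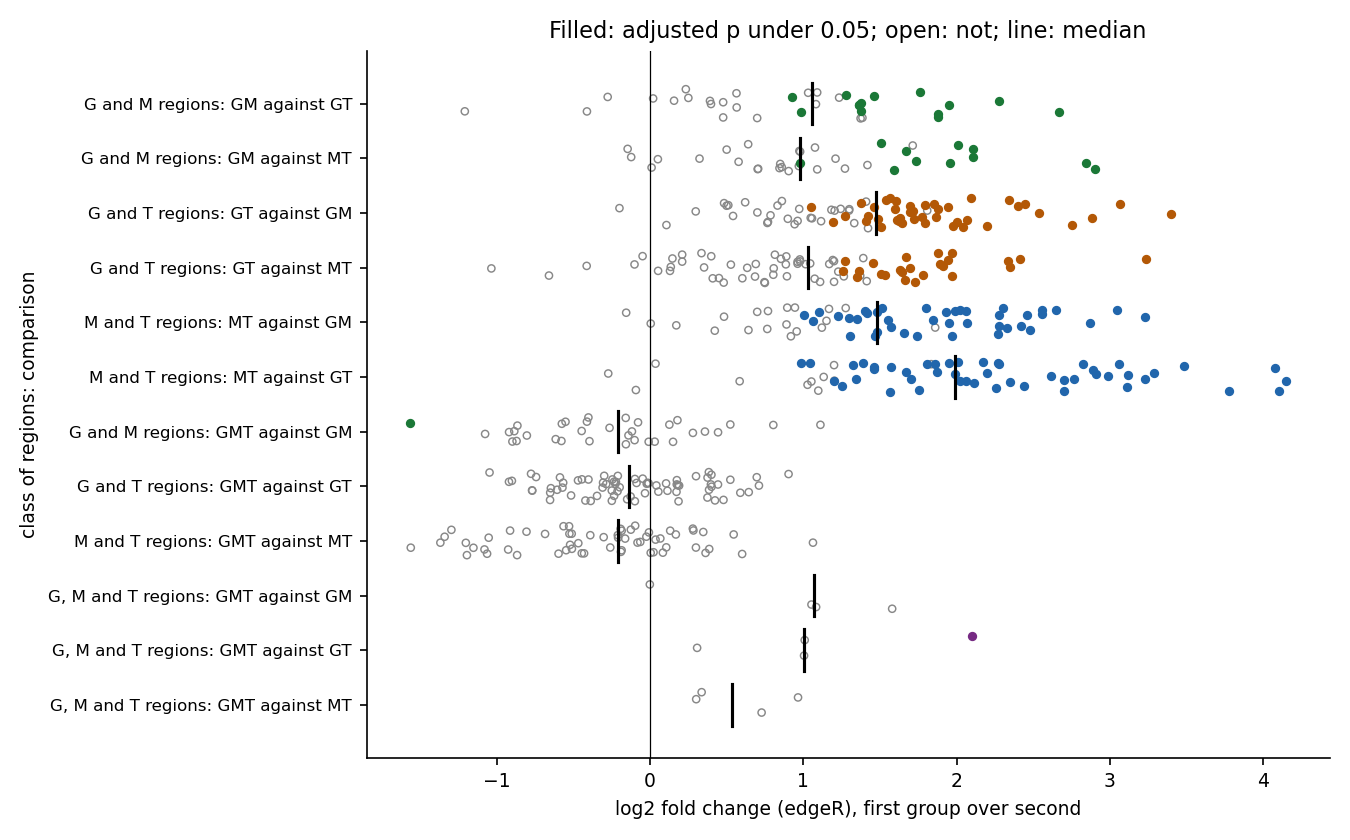
Log2 fold change of each member in the 12 comparisons between combinations (x axis, first group over second), with filled points for an adjusted p under 0.05, open points for the others and a line at the median. The 6 upper rows lie mostly right of 0, with medians of 0.98 to 1.99, and the 3 rows of GMT against the own pair centre near 0, with medians of -0.21 to -0.14.

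Only 4 regions passed in all 3 single factors. The first in rank was chr2:154317712-154318188, with 2.18, 2.50 and 8.30 CPM in the control. G had 27.6, 18.1 and 25.3 CPM, M had 43.2, 31 and 28.5 CPM, and T had 44.4, 34 and 21.7 CPM. Every GM library was below every library of the other combinations there, with means of 19.7 ± 4.83 CPM in GM (SD, n = 3), 34.9 ± 5.95 in GT, 32.3 ± 9.67 in MT and 40.7 ± 17.5 in GMT. The gap was under 1 count, with 24.4 CPM in GM replicate 1 and 24.9 CPM in GMT replicate 1, where 1 count was worth 4.14 CPM. At chr8:47961140-47961736 the means were 13.9 ± 2.60 CPM for the control, 80.6 ± 35.4 for G, 73.9 ± 38.1 for M, 49.9 ± 33.9 for T and 148 ± 74.6 for GMT, with 71.7 to 74.9 CPM in the pairs. At chr15:58707792-58708025 all 3 ratios were between 2.60 and 2.69, and the GMT libraries had 0, 36.7 and 34 CPM, the 0 in GMT replicate 1.

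The remaining region, chr3:52890609-52891176, was highest with Mef2c among the single factors. M had 76.8, 40.7 and 87.7 CPM, against 9.78, 15.5 and 22.7 CPM in G, 18.3, 14.8 and 16.3 CPM in T and 4.37, 1.25 and 3.32 CPM in the control. The combinations with Mef2c were high, at 108, 39.3 and 111 CPM in GM, 71, 87.8 and 46.7 in MT and 33.1, 103 and 110 in GMT, and GT was low, at 14.8, 28 and 14.1 CPM. GMT against GT was the only call among the 4 regions in GMT against the 3 pairs (log2 fold change 2.10 ± 0.45, adjusted p = 0.00385, edgeR), and it was lost in a fit of those 6 libraries alone (adjusted p = 0.0609). None of the 4 was called against GM or against MT by edgeR or DESeq2, with 3 and 1 at an unadjusted p under 0.05. The latter counts have no share of all regions beside them. Without GMT replicate 1, 2 of the 4 were called higher in GMT than in GM, and 1 was without GM replicate 1 or with the replicate number as a block.

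With all 3 factors, 148 of 169 members (87.6%) had a ratio to the control of at least 2.5, beside 10.4% of all 30815 regions. The count was 28 of 34 at the G and M regions, 65 of 72 at the G and T regions, 51 of 59 at the M and T regions and 4 of 4. No member had a ratio under 1 in GMT. In the own pairs the count was 31 of 34 in GM, 71 of 72 in GT and 58 of 59 in MT. The other pairs passed less often, with 12 of 34 G and M regions in GT and 10 in MT, 20 of 72 G and T regions in GM and 36 in MT, and 23 of 59 M and T regions in GM and 12 in GT. Over all regions 4.24% passed in GM, 5.88% in GT and 7.82% in MT. These ratios use the control libraries by which the members were chosen, so nothing is read from the excess over all regions. Regions that passed in exactly 1 factor were chosen against that control too, and 265 of 1201 (22.1%) with G, 385 of 1454 (26.5%) with M and 1192 of 2050 (58.1%) with T had a ratio of at least 2.5 in GMT.

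Members were wider than most regions of the series. Their median width was 355 bp, from 203 to 1072 bp, against 234 bp over all regions. It was 346 bp at the G and M, 339 bp at the G and T and 387 bp at the M and T regions, and 264, 270 and 312 bp at regions that passed in G, M or T only. A width of at least 500 bp was found in 42 of 169 members (24.9%) and in 5.03% of all regions. How the authors set the region borders is not given in the sources used here. CPM was not divided by width, and the part of width in the membership was not tested.

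The members lay on every chromosome except Y. The most were on chromosome 8, with 17 members (10.1% of them, where 5.31% of all regions lie). Chromosome 5 had 15 (8.88%, beside 6.198% of all regions) and chromosome 11 had 14 (8.28%, beside 6.56%). Chromosome 19 had 11 (6.51%, beside 3.06%). Shares below that of all regions included chromosome 2, with 8 members (4.73%, beside 8.23%), and chromosome 16, with 2 (1.18%, beside 3.34%). Within 10000 bp of another member lay 4 members (2.37%), beside 0.437% of the 30646 other regions within that distance of a member. Within 100000 bp the shares were 4.73% (8 members) and 3.04%. A region that passed in exactly 1 factor lay within 10000 bp of 40 of 169 members (23.7%) and of 10.2% of the other regions. These shares were not tested. The closest neighbours were 2 G and T regions 378 bp apart, chr11:18869335-18869644 and chr11:18870022-18870359, named here after their values were seen. Both were called higher in GT than in GM (log2 fold changes 2.20 ± 0.47, adjusted p = 0.00233, and 1.64 ± 0.43, adjusted p = 0.0104, edgeR). The GT libraries had 40.7, 89 and 40 CPM at the former and 54.3, 114 and 44.7 CPM at the latter, highest in the same library at both.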

How the data were processed

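ATAC-seq counts were analysed for 24 libraries, 3 in each of 8 groups taken from the labels. A further 3 labelled samples, dsRed cells with the inhibitors, were not analysed here. The table the authors deposited holds whole-number counts per region and library, with totals that differ between libraries. The submitters' processing notes name Bowtie2, Picard, featureCounts and mm9. How regions and reads were filtered is not given in the sources used here.

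CPM for the rule and all levels is the count over the library total. For tests, filterByExpr (minimum count 10) kept 20494 regions, all 169 members among them. TMM scaling and edgeR 4.0.16 quasi-likelihood fits over the 8 groups followed in R 4.3.3, with p-values adjusted by Benjamini-Hochberg over all regions tested. The SE is the log2 fold change divided by the square root of F. The procedure was tested on simulated data for MT against GM. Of regions changed 4-fold, 44 of 50 rises and 14 of 45 falls were called in the right direction. At 2-fold, 3 of 48 rises and 5 of 41 falls were called, and 2 of 18457 unchanged regions were. The changed regions were drawn at random from all those tested. Every group but MT was simulated at the same level, and a common spread was used. These rates are therefore not the rates at the members. Limma 3.58.1 and DESeq2 1.42.0 served alternatives. The 12 tests compare combinations only. Named regions are the first 4 of each class by the smallest passing ratio, up to 2 called regions with non-overlapping libraries per comparison and direction, and those beside the threshold. The members and lists were chosen with earlier results of these data known.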

Additional observations from a re-analysis of the deposited data

How the results depend on the processing

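The number of members depended on the rule. With 1 CPM added in place of 5 there were 1014 members (269 G and M, 349 G and T, 257 M and T, 139 in all 3), and with 10 CPM 63 (6, 29, 27 and 1). A threshold of 2 gave 543 (126, 232, 166 and 19) and a threshold of 3 gave 68 (9, 34, 24 and 1). TMM-scaled CPM gave 176, of which 164 were shared, and medians in place of means gave 205, of which 130 were shared. Leaving out 1 library at a time gave 140 to 252 members, with 27 to 54 G and M, 55 to 105 G and T, 47 to 84 M and T and 2 to 9 regions in all 3. The 54 and a 9 came without control replicate 1, and the 2 without T replicate 1.

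Leaving out 1 library gave 1 to 21 called G and M regions for GM against GT and 8 to 16 for GM against MT. It gave 7 to 49 G and T regions for GT against GM and 8 to 35 for GT against MT, and 26 to 43 M and T regions for MT against GM and 35 to 49 for MT against GT. For GMT against the own pair it gave 0 to 2, 0 to 1 and 0 to 1. For the 4 regions it gave 0 to 2 for GMT against GM. GM against GT at the G and M regions had 9 calls with no filter, 9 with a stricter filter, 6 with the compared groups alone and 6 with a minimum fold of 1.5. GT against GM at the G and T regions had 26 with the 12 combination libraries alone, 25 with the compared groups alone and 21 with the minimum fold, and GT against MT had 14 with the minimum fold. GMT against GM at the G and M regions had 0 with the stricter filter, and GMT against GT at the 4 regions had 0 with the compared groups alone. The share of all regions called in each alternative fit is not given, so nothing particular to the members is read from these changes. Where not shown by fewer libraries or regions, the cause was not tested.

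Replicate numbers did not pair the samples: same-numbered deviations correlated above 0.1 in 5 of 18 cases, and a library correlated best with its own number in 5 of 18. With the replicate number as a block the 12 counts of calls were 14, 11, 36, 22, 38, 48, 1, 0, 0, 1, 1 and 0, in the order of the comparisons in the plot of fold changes. The block changed 1 count by over 1.5 times, from 0 to 1 for GMT against GM at the 4 regions. Of 227 alternative values for the 14 named tests, none reversed and 4 lost the call.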
